A study of Arabidopsis thaliana with 24 samples.

Results

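HIS1-3 (AT2G18050) and WSD1 (AT5G37300) are a pair of Arabidopsis thaliana genes that have both been linked to drought. Their transcript levels were followed across every set of a series on green tissue. They were taken by name from the annotation of the arrays, and each has 1 probe set that names it alone, so 2 genes are described of 13356 that a probe set names alone. Both were selected on their levels and differences between sets in these same arrays, so the levels and differences below are a description and no test of them is given. The series measured biotin-labelled total RNA of accession Col-0 on 24 one-colour oligonucleotide arrays, in 8 sets of 3 arrays lettered A, B and C, all from plants in continuous light. Sets ATGE_101 and ATGE_97 hold seedling green tissue from 0.5x GM, a growth medium, with 5% sucrose at 20 °C, and sets ATGE_100 and ATGE_96 hold the same material from 0.5x GM for which the labels state no sucrose. A remark on sets ATGE_97 and ATGE_96 says that most plants looked like the 7-day-old seedlings of set ATGE_7, and sets ATGE_101 and ATGE_100 carry no such remark. Sets ATGE_22, ATGE_23 and ATGE_24 are whole plants from soil at 23 °C and 65% relative humidity, taken past the floral transition and ahead of bolting, and their labels are identical. Set ATGE_7 is the green part of seedlings from the same soil regime. No group was exposed to a labelled drought treatment.

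HIS1-3 encodes a linker histone, the class of small basic proteins that bind nucleosomes where DNA enters and leaves them and that compact chromatin. In Arabidopsis it is a short, divergent variant beside the main linker histones, known for its induction by water deficit and abscisic acid and for its presence in guard cells. WSD1 belongs to a family of bifunctional wax ester synthases and diacylglycerol acyltransferases. It joins fatty alcohols to acyl groups in the epidermis and makes the wax esters of the stem cuticle, the water-repellent layer that limits evaporation.

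Values are MAS5 intensities as the authors deposited them, on a linear scale on which each array has a trimmed mean of 100. Levels are means ± SD of 3 arrays (n = 3), and the labels do not say whether these came from separate cultures, so spreads and p-values measure only the variation between these samples. Differences are log2 values after adding 6.75 to each intensity, given with the standard error (SE) of a limma model fitted to the 8 sets, and they understate changes of low levels. This SE pools the spread within all 8 sets, so it can be wider or narrower than the spread of the sets compared. The number of arrays limits the precision, and in whole tissue fewer cells with a transcript and less of it per cell cannot be told apart. The levels of HIS1-3 and WSD1 come from different probes and are not set against each other.

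As a check of the labelled tissue, RCA, the activase of the carbon-fixing enzyme in green cells, stood between 3050 and 4760 in all sets. The summed level of the root list, 2 of whose genes have a probe set, was 1010 to 2650 in the medium sets, 21.7 to 40.6 in the whole plants and 752 in set ATGE_7. Nearly all of it came from PYK10, a beta-glucosidase of root and seedling tissue, while EXPA7, a marker of root hairs, stood at 5.24 to 10.9, below the lowest level admitted to the tests. A few arrays stood apart in their controls. The mean of the BioB spike-in probe sets was 29.2 on array A of set ATGE_100 and 38.5 on array A of set ATGE_101, against 58 to 134 on the others, and the 3'/5' ratio of the GAPDH control reached 2.81 on array A of set ATGE_24. Differences of HIS1-3 and WSD1 that use these arrays are therefore also given without the 3 arrays A of sets ATGE_24, ATGE_100 and ATGE_101.

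HIS1-3 was highest in set ATGE_101, where its 3 arrays read 326, 306 and 300.1. In set ATGE_100 they read 199, 165 and 174. Both sets lay above every array of the other 6 sets. In set ATGE_97 the arrays read 24.6, 27.1 and 26.8, and in set ATGE_96 they read 29.3, 28.5 and 29.8. Seedlings on the same medium thus fell into a high and a low pair. Among whole plants, HIS1-3 read 27.7, 23.0 and 27.1 in set ATGE_22. It read 83.9, 43.55 and 49.5 in set ATGE_23 and 86.9, 48.4 and 51.6 in set ATGE_24. In each of these last sets array A was the high one, and these sets had the widest spread of the gene, with SDs of 21.8 and 21.3. Array A was also the highest, by smaller margins, in sets ATGE_22, ATGE_100 and ATGE_101, and the lowest in sets ATGE_97 and ATGE_7. Soil seedlings of set ATGE_7 read 4.34, 7.10 and 9.03, lower than every other array of the series. The gene exceeded 22.8, the level that 3 arrays had to pass for a test, on 21 of 24 arrays, and the exceptions were those of set ATGE_7.

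WSD1 had another order. It read 88.0, 104 and 86.3 in set ATGE_101 and 38.3, 29.8 and 40.02 in set ATGE_100. In set ATGE_97 it read 2.32, 5.27 and 2.27, and in set ATGE_96 2.74, 0.589 and 1.94, so that all 6 arrays lay near the bottom of the scale. Among whole plants it read 30.9, 31.1 and 52.7 in set ATGE_22, 85.65, 52.8 and 62.3 in set ATGE_23, and 81.6, 118 and 83.6 in set ATGE_24. Here array A was high in set ATGE_23 but not in set ATGE_24, where array B was. Soil seedlings of set ATGE_7 read 9.65, 14.6 and 14.2, above all arrays of sets ATGE_97 and ATGE_96 and below all arrays of the other 5 sets. WSD1 exceeded 22.8 on 15 of 24 arrays, and on none of sets ATGE_97, ATGE_96 and ATGE_7.

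**Figure D1:**
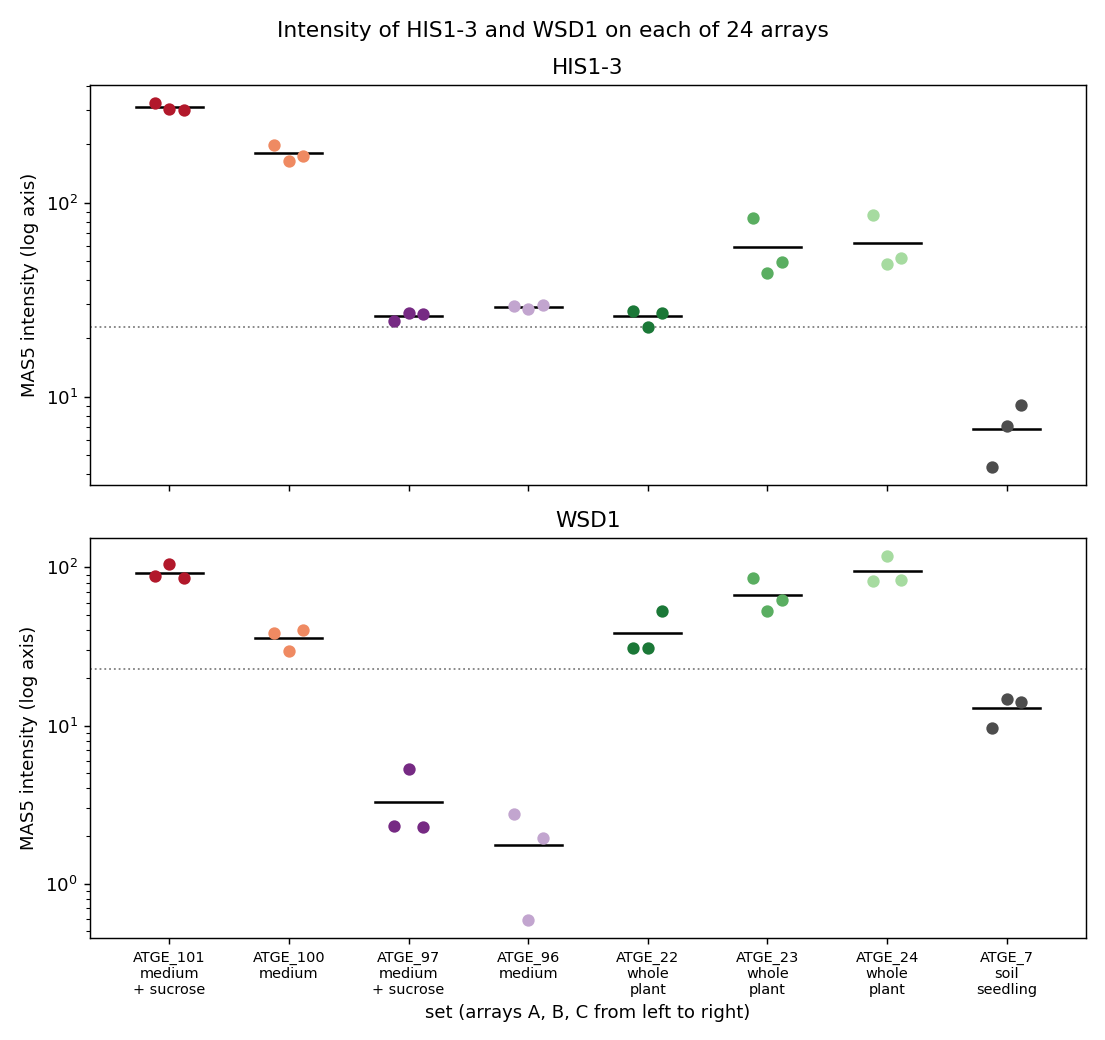
MAS5 intensity (log axis) of HIS1-3 and WSD1 on each of the 24 arrays by set, with points for arrays, bars for the mean of 3 and a dotted line at 22.8, the level needed on 3 arrays for a test. HIS1-3 is highest in the medium sets ATGE_101 and ATGE_100 and lowest in soil seedlings of set ATGE_7, whereas WSD1 is lowest in the medium sets ATGE_97 and ATGE_96.

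Ordered by mean, HIS1-3 stood at 6.82 ± 2.36 in set ATGE_7, 25.9 ± 2.58 in ATGE_22, 26.2 ± 1.34 in ATGE_97, 29.2 ± 0.679 in ATGE_96, 59.0 ± 21.8 in ATGE_23, 62.3 ± 21.3 in ATGE_24, 179 ± 17.5 in ATGE_100 and 311 ± 13.6 in ATGE_101. Neighbours whose arrays overlapped were ATGE_22 with ATGE_97 and ATGE_23 with ATGE_24. Sets ATGE_97 and ATGE_96 did not overlap but lay closer than the standard error of their difference, which draws on the wider spread of other sets too. WSD1 stood at 1.75 ± 1.09 in set ATGE_96, 3.29 ± 1.72 in ATGE_97, 12.8 ± 2.75 in ATGE_7, 36.0 ± 5.49 in ATGE_100, 38.2 ± 12.5 in ATGE_22, 66.9 ± 16.9 in ATGE_23, 92.9 ± 9.98 in ATGE_101 and 94.5 ± 20.7 in ATGE_24. Its overlapping neighbours were ATGE_96 with ATGE_97, ATGE_100 with ATGE_22, and ATGE_101 with ATGE_24. Sets ATGE_22 and ATGE_23 missed overlapping by a narrow margin, 52.7 against 52.8 at the nearest arrays.

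Both genes were higher with sucrose in the second medium pair. HIS1-3 averaged 311 ± 13.6 in set ATGE_101 and 179 ± 17.5 in set ATGE_100, a log2 difference of 0.77 (SE 0.19) and a ratio of the means of 1.73. WSD1 averaged 92.9 ± 9.98 in set ATGE_101 and 36.0 ± 5.49 in set ATGE_100, a log2 difference of 1.22 (SE 0.19) and a ratio of 2.58. Neither gene's arrays overlapped between the sets, as was the case for 39.1% of the 15477 probe sets tested, whose median difference was 0.03. Without array A of sets ATGE_24, ATGE_100 and ATGE_101 the differences were 0.81 for HIS1-3 and 1.3 for WSD1. The 3'/5' ratio of the actin control also differed between these sets, at 8.62 ± 0.426 in ATGE_101 and 3.6 ± 0.789 in ATGE_100, and its part in the differences was not tested.

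In the first medium pair HIS1-3 was slightly lower with sucrose and WSD1 was too low to compare. HIS1-3 averaged 26.2 ± 1.34 in set ATGE_97 and 29.2 ± 0.679 in set ATGE_96, a log2 difference of -0.13 (SE 0.19), with no overlap of the arrays, as for 52.3% of all probe sets tested. WSD1 averaged 3.29 ± 1.72 in set ATGE_97 and 1.75 ± 1.09 in set ATGE_96, and its arrays overlapped. No array of either set reached 22.8, and the log2 difference of 0.23 (SE 0.19) is set largely by the pseudocount, with values of 0.07 to 0.53 under other settings. The median of all probe sets was 0.08. The sucrose difference of HIS1-3 in the second pair exceeded that in the first by 0.9 on the log2 scale.

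Both genes differed widely between the medium pairs. Sets ATGE_100 and ATGE_96 have the same labels apart from the remark on plant stage, and this comparison was added after values had been seen. HIS1-3 was 6.15 times as high in set ATGE_100 as in set ATGE_96, at 179 ± 17.5 against 29.2 ± 0.679, a log2 difference of 2.37 (SE 0.19). WSD1 averaged 36.0 ± 5.49 in set ATGE_100 and 1.75 ± 1.09 in set ATGE_96, a log2 difference of 2.33 (SE 0.19) that ranged from 1.13 to 3.5 with the pseudocount. No ratio is given against sets in which a gene stayed below 22.8 on every array. The arrays of both genes were apart, as were those of 48.6% of all probe sets, with a median of 0.05. Without the 3 arrays named above both differences were 2.29. With sucrose, the log2 differences between sets ATGE_101 and ATGE_97 were 3.27 for HIS1-3, a ratio of 11.9, and 3.32 for WSD1, and without the 3 arrays they were 3.23 and 3.35. PYK10 averaged 1210 ± 79.5 in set ATGE_100 and 2280 ± 55.1 in set ATGE_96 (limma adjusted p = 0.016), a call lost without array A of set ATGE_100 (0.052) and without the 3 arrays together (0.067). The actin 3'/5' ratio was 8.62 ± 0.426 in set ATGE_101 and 3.8 ± 0.374 in set ATGE_97, but 3.6 ± 0.789 in set ATGE_100 and 4.12 ± 1.92 in set ATGE_96. The part of neither in these differences was tested.

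Against soil seedlings, the first medium pair had more HIS1-3 and less WSD1, whereas the second medium pair had more of both. HIS1-3 averaged 29.2 ± 0.679 in set ATGE_96 and 6.82 ± 2.36 in set ATGE_7, a log2 difference of 1.42 (SE 0.19). WSD1 averaged 1.75 ± 1.09 in set ATGE_96 and 12.8 ± 2.75 in set ATGE_7, a log2 difference of -1.2 (SE 0.19). WSD1 stayed below 22.8 on every array of sets ATGE_96, ATGE_97 and ATGE_7, and so did HIS1-3 in set ATGE_7. The sizes therefore depend on the pseudocount, from -2.11 to -0.47 for WSD1 and from 0.73 to 1.9 for HIS1-3 in ATGE_96 minus ATGE_7. All arrays were apart for both genes, as for 74.7% of all probe sets, whose median was -0.12. Set ATGE_97, with sucrose, gave the same directions against set ATGE_7, with log2 differences of 1.29 for HIS1-3 and -0.97 for WSD1. Set ATGE_100 differed from set ATGE_7 by 3.79 for HIS1-3 and 1.13 for WSD1, and set ATGE_101 by 4.56 and 2.35, with no overlap of the arrays. Without the 3 arrays these values were 3.71 and 1.09 for set ATGE_100, and 4.53 and 2.39 for set ATGE_101. Medium and soil sets also differ in temperature, and a relative humidity is labelled only for the soil sets. Substrate, temperature and humidity therefore cannot be told apart. Sets ATGE_100 and ATGE_101 carry no remark on plant stage, so in their differences from set ATGE_7 stage cannot be told apart from these either. The PYK10 transcript moved with this contrast, at 2280 ± 55.1 in set ATGE_96 and 747 ± 38.4 in set ATGE_7, and its part was not tested.

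Whole plants had more of both transcripts than seedlings on the same soil. HIS1-3 averaged 49.1 over the 9 arrays of sets ATGE_22, ATGE_23 and ATGE_24 and 6.82 in set ATGE_7, a log2 difference of 1.95 (SE 0.15). WSD1 averaged 66.6 over the whole plants and 12.8 in set ATGE_7, a log2 difference of 1.81 (SE 0.16). Both genes stayed below 22.8 in set ATGE_7, and with the pseudocount the differences ranged from 1.11 to 2.48 for HIS1-3 and from 1.17 to 2.13 for WSD1. The arrays did not overlap for either gene, as for 44.9% of all probe sets, with a median of 0.01. Without array A of sets ATGE_24, ATGE_100 and ATGE_101 the differences were 1.87 for HIS1-3 and 1.84 for WSD1. PYK10 went the other way, at 12.6 to 34.4 in the whole-plant sets and 747 in set ATGE_7, and the actin 3'/5' ratio was 9.01 to 10.1 in the whole plants and 5.96 in set ATGE_7. Neither was tested for its part in these differences.

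Among the whole plants, whose labels do not tell them apart, set ATGE_22 had the least of both transcripts. HIS1-3 averaged 25.9 in set ATGE_22 and 60.7 over sets ATGE_23 and ATGE_24, a log2 difference of -1 (SE 0.16). WSD1 averaged 38.2 in set ATGE_22 and 80.7 over sets ATGE_23 and ATGE_24, a log2 difference of -0.95 (SE 0.17). In neither gene did the arrays overlap, which held for 13.4% of all probe sets, with a median of -0.06. Without array A of sets ATGE_24, ATGE_100 and ATGE_101 the differences were -0.88 for HIS1-3 and -1 for WSD1. Between sets ATGE_23 and ATGE_24 the arrays of both genes overlapped, and the log2 differences, ATGE_23 minus ATGE_24, were -0.08 for HIS1-3 and -0.47 for WSD1 (SE 0.19 for WSD1).

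**Figure D2:**
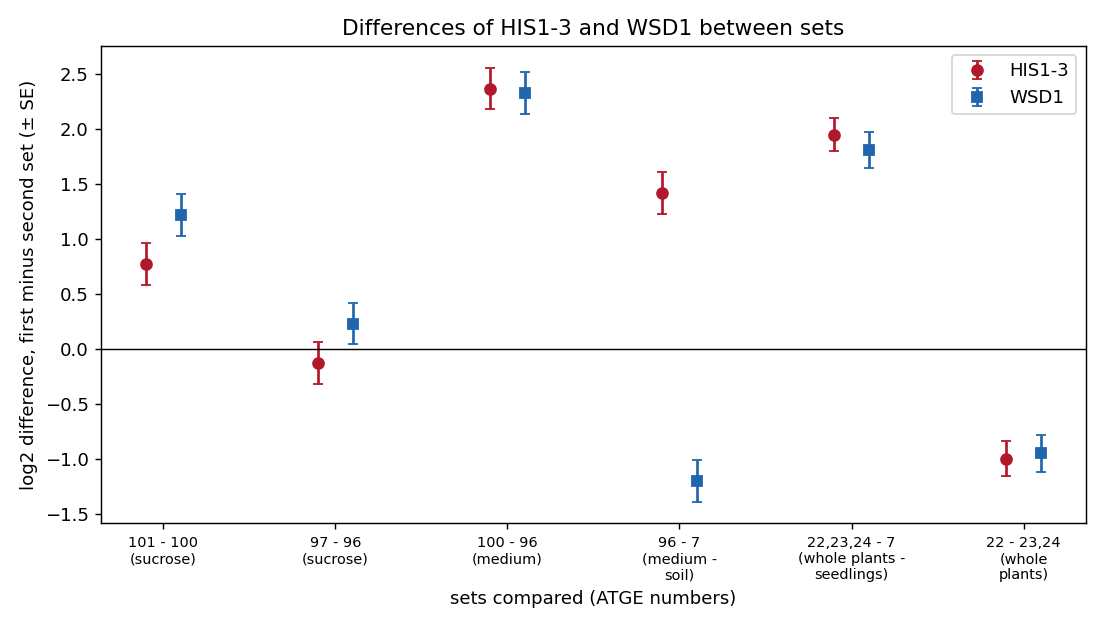
Log2 differences (intensity plus 6.75) of HIS1-3 and WSD1 in 6 comparisons of sets, as points with bars for the limma SE. In ATGE_96 minus ATGE_7 HIS1-3 is at 1.42 and WSD1 at -1.2, with ranges of 0.73 to 1.9 and -2.11 to -0.47 by pseudocount. In ATGE_100 minus ATGE_96 they are at 2.37 and 2.33, where the value of WSD1 ranges from 1.13 to 3.5 with the pseudocount.

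Set against whole soil plants, the second medium pair also separated the genes. HIS1-3 was higher in set ATGE_100 than in sets ATGE_22, ATGE_23 and ATGE_24 by 1.84 on the log2 scale (SE 0.15), with no overlap, as for 42.6% of all probe sets tested. The WSD1 arrays overlapped there, at a log2 difference of -0.68 (SE 0.16). In set ATGE_101 HIS1-3 exceeded the whole plants by 2.61 with no overlap, as for 38.8% of all probe sets. WSD1 differed there by 0.54, and its arrays overlapped. Without the 3 arrays the differences were 1.85 and -0.75 for HIS1-3 and WSD1 in set ATGE_100, and 2.66 and 0.55 in set ATGE_101. These sets differ in tissue, plant stage, substrate, temperature and labelled humidity, which cannot be told apart here. PYK10 averaged 1210 in set ATGE_100 and 1000 in set ATGE_101, against 12.6 to 34.4 in the whole-plant sets, and its part was not tested.

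How closely the pair went together depended on which sets were taken. Over the 8 set means Pearson's r between HIS1-3 and WSD1 was 0.62 and Spearman's rho 0.55. Over the 4 medium sets r was 0.99 and rho 0.8, and over the 4 soil sets r was 0.99 and rho 1. The deviations of the 24 arrays from their set means correlated at r 0.32 and rho 0.39. These are descriptions with few points that share the scaling of each array. Among the medium sets r rests on the gap between the high pair, ATGE_101 and ATGE_100, and the low pair, ATGE_97 and ATGE_96. Within the low pair WSD1 was below 22.8 on every array, and the genes ranked the sets in opposite orders.

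**Figure D3:**
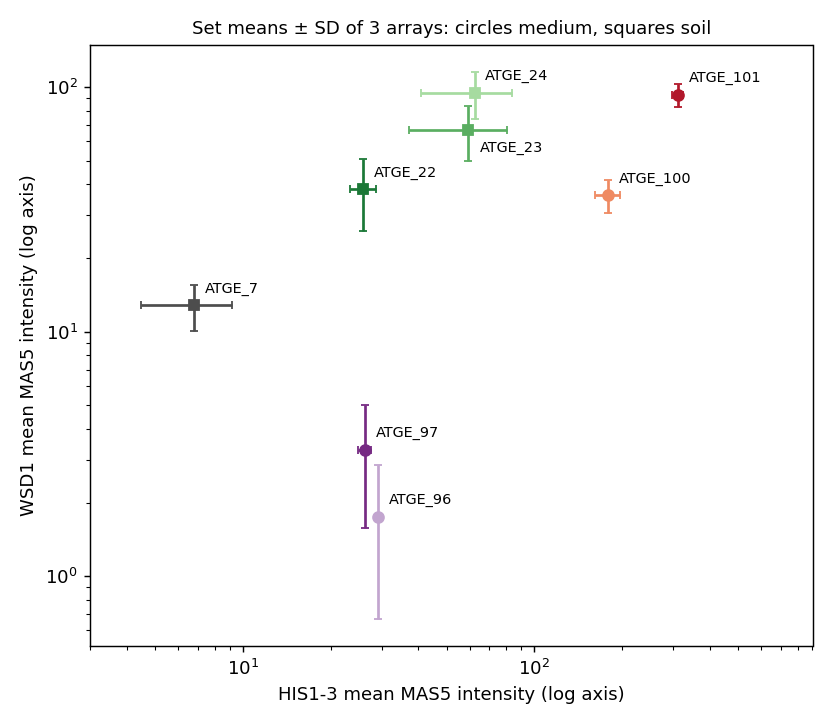
Mean intensity of WSD1 against that of HIS1-3 (log axes) for the 8 sets, with bars for the SD of 3 arrays. The soil sets (squares) lie along a rising line. The medium sets (circles) form a high pair, ATGE_101 and ATGE_100, and a low pair, ATGE_97 and ATGE_96, which is below all the soil sets in WSD1.

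Few other linker histone genes could be set beside HIS1-3. Of a list of 9 loci with a linker histone domain, 3 besides HIS1-3 were tested, namely AT1G06760, AT2G30620 and HON4, a protein with the globular domain of linker histones. A call means a limma adjusted p under 0.05 over all 15477 probe sets. In ATGE_101 minus ATGE_100 none of the 3 was called by limma, where 16.7% of all probe sets were, 1 had an unadjusted p under 0.05, and their median log2 difference was 0.15. In ATGE_97 minus ATGE_96, where 33.1% were called, 2 were lower, with a median of -0.27. In ATGE_100 minus ATGE_96, where 30.5% were called, 1 was higher and 2 were lower, with a median of -0.51. AT2G30620 fell by 0.6 there and AT1G06760 fell by 0.51 (limma adjusted p = 2.1e-05 and 0.00053), whereas HIS1-3 was higher by 2.37. In ATGE_96 minus ATGE_7, where 70.8% were called, 1 was higher and 1 was lower, with a median of -0.04. In whole plants minus set ATGE_7, where 65.1% were called, 2 were lower, with a median of -0.19, and HON4 fell by 0.27 (limma adjusted p = 0.0039). In ATGE_22 minus sets ATGE_23 and ATGE_24, where 17.6% were called, 2 were lower, with a median of -0.26. Several of these calls ended when 1 array was left out. That was so for AT1G06760 in ATGE_97 minus ATGE_96 without any single array (adjusted p = 0.051 to 0.12), in whole plants without array B of set ATGE_7 (0.16) or any of 6 others, and in ATGE_22 minus sets ATGE_23 and ATGE_24 without array A of set ATGE_22 (0.3) or any of 5 others. It was so for AT2G30620 in ATGE_97 minus ATGE_96 without array C of set ATGE_96 (0.065) or B of set ATGE_97 (0.078), in ATGE_96 minus ATGE_7 without array A or C of set ATGE_7 (0.051 and 0.067) or C of set ATGE_96 (0.072), and in the whole-plant comparison without array A of set ATGE_22 (0.085). HON4 lost its call in ATGE_100 minus ATGE_96 without array A or C of either set (0.053 to 0.17), and also without the 3 arrays A of sets ATGE_24, ATGE_100 and ATGE_101 (0.13). That omission ended the call of AT1G06760 in whole plants too (0.074). Over the 8 set means, the correlation with HIS1-3 was -0.66 for AT1G06760, -0.44 for AT2G30620 and 0.07 for HON4.

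Relatives of WSD1 were measured just as sparsely. Of 11 loci of the wax ester synthase family 5 have a probe set, and besides WSD1 the tested members were AT3G49210 and AT5G12420, while AT1G72110 and AT3G49190 stayed too low to be tested. In set ATGE_96 against set ATGE_7, WSD1 was lower by 1.2, below 22.8 in both sets, and 70.8% of all probe sets were called. Both relatives rose there, by 1.5 for AT3G49210 and by 0.73 for AT5G12420 (limma adjusted p = 3e-06 and 0.00083). AT3G49210 averaged 66.1 ± 16.2 in set ATGE_96 and 18.6 ± 0.971 in set ATGE_7. In the whole plants AT5G12420 fell by 0.53 against set ATGE_7 (limma adjusted p = 0.0026), and in set ATGE_100 it fell by 0.73 against set ATGE_96 (limma adjusted p = 0.0029), while WSD1 was higher in both comparisons. AT3G49210 was called in neither, and 65.1% and 30.5% of all probe sets were called in them. Neither relative was called by limma, or had an unadjusted p under 0.05, in ATGE_101 minus ATGE_100, in ATGE_97 minus ATGE_96 or in ATGE_22 minus sets ATGE_23 and ATGE_24. The shares of all probe sets called there were 16.7%, 33.1% and 17.6%. Their correlation with WSD1 over the 8 set means was -0.42 for AT3G49210 and -0.82 for AT5G12420.

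Genes that respond to drought and abscisic acid gave a mixed picture beside HIS1-3 and WSD1. Of a list of 47 such loci 6 were tested: the dehydrins COR47 and LTI30, the chloroplast proteins COR15A and COR15B, the zinc finger protein DI19 and the aldehyde dehydrogenase ALDH7B4. In whole plants all 6 rose against set ATGE_7, a comparison in which 65.1% of all probe sets were called, with a median log2 difference of 1.82, next to 1.95 for HIS1-3 and 1.81 for WSD1. COR15A, for example, averaged 395 ± 79.7 over the whole plants (n = 9) and 76.4 ± 6.64 in set ATGE_7 (limma adjusted p = 1.3e-11). In set ATGE_96 against set ATGE_7, where 70.8% of all probe sets were called, 4 rose and 2 fell. COR47, ALDH7B4 and DI19 rose with HIS1-3, by 2.44, 2.2 and 1.66 (limma adjusted p = 3.7e-14, 3.6e-14 and 3.2e-11). COR15A fell by 2.18 and COR15B fell by 1.11 (limma adjusted p = 2.5e-10 and 0.00013), in the direction of WSD1, which stayed below 22.8 in both sets.

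Over the set means, too, the 6 genes differed in which member they went with. Correlations with HIS1-3 were 0.8 for COR47, 0.75 for DI19 and 0.7 for ALDH7B4, which reached 0.34, 0.28 and -0.1 with WSD1. COR15A and COR15B had correlations with WSD1 of 0.83 and 0.91, and with HIS1-3 of 0.12 and 0.36. LTI30 was close to neither, at 0.25 with HIS1-3 and 0.47 with WSD1. In set ATGE_101 COR15A alone of the 6 was called against set ATGE_100, where 16.7% of all probe sets were. It stood at 115 ± 3.69 against 51.4 ± 8.68, a log2 difference of 1.08 (limma adjusted p = 0.00011). In set ATGE_100 against set ATGE_96, where 30.5% were called, 3 of the 6 rose, COR15B by 1.81, COR15A by 1.65 and COR47 by 0.49 (limma adjusted p = 2.5e-06, 2.2e-07 and 0.0016). In set ATGE_97 against set ATGE_96, where 33.1% were called, COR47 and ALDH7B4 fell by 0.75 and 0.97 (limma adjusted p = 2.1e-05 and 2.1e-07), and COR15A and COR15B were called higher, by 0.44 and 0.6 (limma adjusted p = 0.05 before rounding a little less, and 0.04). The call of COR15A was lost without array A or C of set ATGE_96 or A or B of set ATGE_97 (0.093 to 0.21), and that of COR15B without any single array of these sets (0.056 to 0.1). In set ATGE_22 against sets ATGE_23 and ATGE_24, where both HIS1-3 and WSD1 were lower and 17.6% of all probe sets were called, COR47 rose by 0.48 (limma adjusted p = 0.00086) and the other 5 were not called.

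Few genes of the cuticle could be set beside WSD1. Of 30 loci for wax synthesis, export and regulation 4 were tested, and of 10 loci for cutin 1 was, AT5G33370. Of the 4 wax genes 1 was called higher and 1 lower in ATGE_101 minus ATGE_100, in ATGE_100 minus ATGE_96 and in ATGE_22 minus sets ATGE_23 and ATGE_24. The shares of all probe sets called in these comparisons were 16.7%, 30.5% and 17.6%. In ATGE_97 minus ATGE_96 1 was higher (33.1% of all probe sets called). In ATGE_96 minus ATGE_7 1 was higher and 2 were lower (70.8% called), and in whole plants minus ATGE_7 3 were higher (65.1% called). These counts depend on single arrays. Without array C of set ATGE_7, AT1G02190 (adjusted p = 0.23) and CER26 (0.15) lost their calls in whole plants, which left 1, and AT1G02190 also lost its call there without array A of set ATGE_7 (0.12), C of ATGE_22 (0.051), C of ATGE_23 (0.06) or B of ATGE_24 (0.063). In ATGE_101 minus ATGE_100 AT1G02190 lost its call without array B of set ATGE_100 (0.1) or of set ATGE_101 (0.053), each of which ended that of DEWAX too. In ATGE_96 minus ATGE_7 CER26-LIKE lost its call without array A (0.083) or C (0.066) of set ATGE_7 or C of set ATGE_96 (0.095). In ATGE_100 minus ATGE_96 CER26 lost its call without array A (0.054) or B (0.097) of set ATGE_96 or A of set ATGE_100 (0.065). The medians of the 4 lay between -0.36 and 0.43. DEWAX, a repressor of wax synthesis genes, averaged 943 ± 36.2 in set ATGE_96 and 131 ± 13.1 in set ATGE_7 (limma adjusted p = 3.8e-12), the comparison in which WSD1 was lower but below 22.8 on every array. It was also higher in whole plants than in set ATGE_7, by 1.84 (limma adjusted p = 2.2e-10), and higher in set ATGE_22 than in sets ATGE_23 and ATGE_24, by 0.84 (limma adjusted p = 0.00023). In set ATGE_101 DEWAX averaged 727 ± 50.1 and in set ATGE_100 1080 ± 82.8, a call (limma adjusted p = 0.021) lost without array B of set ATGE_100 (0.088) or of set ATGE_101 (0.083), and also without array A of sets ATGE_24, ATGE_100 and ATGE_101 together (0.061). CER26, which acts in the elongation of wax precursors, fell by 0.8 in set ATGE_96 against set ATGE_7 and by 0.57 in set ATGE_22 against sets ATGE_23 and ATGE_24 (limma adjusted p = 3.3e-06 and 0.00037), and rose by 0.54 in set ATGE_97 against set ATGE_96 (limma adjusted p = 0.0014). AT5G33370 rose with both genes in set ATGE_100 against set ATGE_96, by 1.88 (limma adjusted p = 9.4e-06), and in whole plants against set ATGE_7, by 0.98 (limma adjusted p = 0.00032). AT5G33370 was also called higher in ATGE_97 minus ATGE_96, by 0.7 (limma adjusted p = 0.039), where HIS1-3 was slightly lower. That call was lost in 7 of 15 alternative runs. In ATGE_101 minus ATGE_100, where both genes were higher, AT5G33370 was not called. Its correlation over the 8 set means was 0.9 with HIS1-3 and 0.81 with WSD1. For AT1G02190, from the wax list, the correlations were 0.88 and 0.8. AT1G02190 exceeded 22.8, the level needed on 3 arrays for a test, only in set ATGE_101, at 27.7 to 31.1. Its highest array in any other set read 17.4, in set ATGE_24. Both sides of its calls in ATGE_100 minus ATGE_96 and in whole plants minus ATGE_7 therefore stayed below 22.8. Its correlations likewise rest on levels below 22.8 in all sets but ATGE_101.

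Markers of the stomatal lineage were looked at because HIS1-3 is known from guard cells. Their summed level over 4 measured genes was 799 in set ATGE_101, 954 in ATGE_100, 1220 in ATGE_97, 1100 in ATGE_96, 376 in ATGE_22, 360 in ATGE_23, 321 in ATGE_24 and 302 in ATGE_7. Most of that sum came from the probe set of AT1G22690, at 1110 in ATGE_97 and 1010 in ATGE_96. FMA stood at 91.2 in ATGE_101, 79 in ATGE_100, 72.2 in ATGE_97 and 65.3 in ATGE_96. SPCH, which starts the lineage, fell by 1.48 in set ATGE_100 against set ATGE_96 and fell by 1.68 in whole plants against set ATGE_7 (limma adjusted p = 6e-05 and 1.3e-07), both comparisons in which HIS1-3 was higher. FMA, which completes the guard cell fate, fell by 0.31 in whole plants against set ATGE_7 (limma adjusted p = 0.002). AT1G22690 rose by 0.71 there (limma adjusted p = 1.3e-05), in the direction of HIS1-3, in a comparison where 65.1% of all probe sets were called. In set ATGE_100 against set ATGE_96 neither FMA nor AT1G22690 was called. Correlations with HIS1-3 over the set means were -0.94 for SPCH, 0.56 for FMA and 0.41 for AT1G22690. The mean of SPCH exceeded 22.8 only in sets ATGE_97 and ATGE_7, at 33.6 and 55.7. Its correlation therefore rests largely on levels below 22.8. Of 3 stomatal genes tested, none was called by limma in ATGE_101 minus ATGE_100, in ATGE_97 minus ATGE_96 (1 with an unadjusted p under 0.05 in each) or in ATGE_22 minus sets ATGE_23 and ATGE_24 (0). Of all probe sets 16.7%, 33.1% and 17.6% were called in these comparisons. In ATGE_96 minus ATGE_7, where 70.8% were called, 1 was higher and 1 lower, and AT1G22690 rose by 2.53 (limma adjusted p = 1.1e-12). The part of stomatal cells in the levels of HIS1-3 was not tested.

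**Figure D4:**
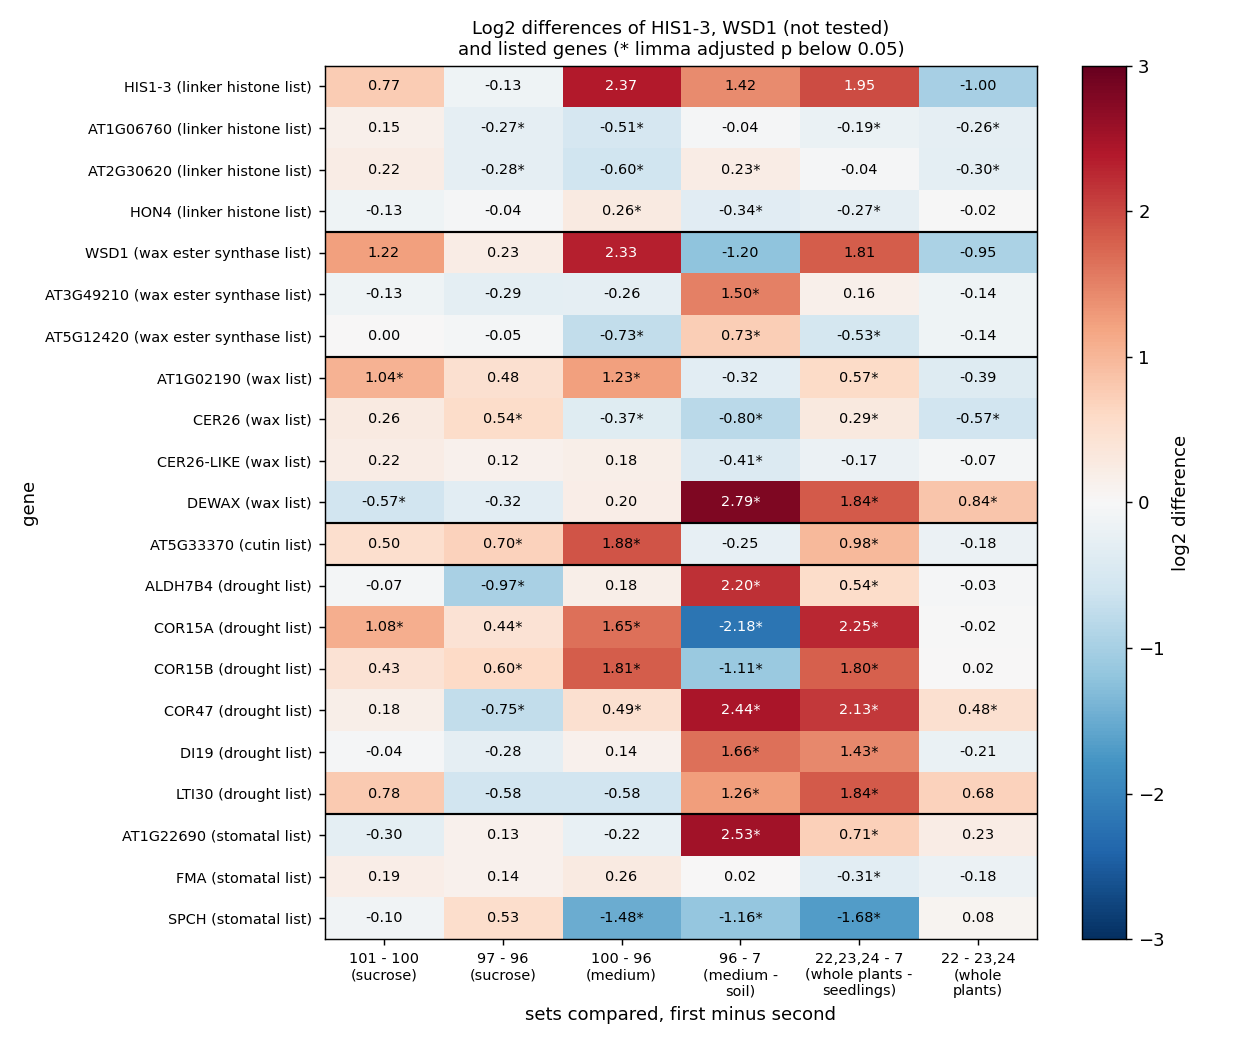
Log2 differences of HIS1-3, WSD1 and 19 tested genes of the linker histone, wax ester synthase, wax, cutin, drought and stomatal lists (rows) in 6 comparisons of sets (columns), with stars for limma calls of the listed genes. In ATGE_96 minus ATGE_7, COR47, ALDH7B4, DI19 and LTI30 share the sign of HIS1-3, and COR15A and COR15B that of WSD1, which is below 22.8 in both sets.

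By their course over the 8 set means, measured as Pearson's r on the log2 scale, the genes most like each member were sought among 1183 other tested genes with a symbol. For HIS1-3 these were PHOS32 (r 0.978), ATGRIP (0.937), DELTA-OAT (0.926), CuAO1 (0.912) and GUT2 (0.911). PHOS32, a phosphoprotein of the universal stress protein family, had a far narrower range than HIS1-3, at 236 in set ATGE_101 and 158 in set ATGE_7. DELTA-OAT, ornithine aminotransferase, had 249 in set ATGE_101 and 69.7 in set ATGE_7. For WSD1 the likest were JKD (0.965), NET2D (0.96), AGL24 (0.951), TCP15 (0.95) and NGA2 (0.95). The mean of JKD exceeded 22.8, the level needed on 3 arrays for a test, only in set ATGE_24, at 24. That of NET2D exceeded 22.8 only in set ATGE_101, at 26.5, whereas TCP15 stood at 43.2 to 156. WSD1 itself stayed below 22.8 on every array of sets ATGE_97, ATGE_96 and ATGE_7. The r values with WSD1 therefore rest partly on levels below 22.8. AGL24, a MADS-domain regulator of flowering, had 94 in set ATGE_101 and 4.78 in set ATGE_96. WSD1 ranked at position 179 among the genes like HIS1-3, and HIS1-3 at position 117 among those like WSD1.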

How the data were processed

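Per the labels, 24 arrays in 8 sets of 3 measured RNA of green tissue. The deposited values are intensities on a linear scale, made by the authors with MAS5 per the submitters' processing notes. Its version is not stated in those notes. Sets were formed from the set number in the labels. Of 22810 probe sets 64 are controls, and 15477 of the other 22746 exceeded 22.8, the 40th percentile of all values, on at least 3 arrays and were tested. Values were turned into log2 after adding 6.75, the 20th percentile, and R 4.3.3 ran limma 3.58.1 and the data.table package (version 1.17.8) to fit the 8 set means (16 residual degrees of freedom, 4.77 from the prior). Two-sided p-values received a Benjamini-Hochberg adjustment across these 15477 probe sets. This fit was first tested on simulated data with known changes.

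HIS1-3 and WSD1, the 12 gene lists and the comparisons were chosen with earlier results of these data known. From the lists, called genes whose arrays did not overlap were named, up to 3 in each direction for a list and comparison. Others are given as values. The 5 likest genes were named for each member. Probe sets naming 1 gene numbered 13513, those naming several 503 and those naming none 8730, and 13436 of the single names matched the RefSeq table. Of 179 listed loci 27 have such a probe set and 23 were tested. The abscisic acid synthesis and receptor list and 3 marker lists have none. Other members may lie among unnamed probe sets and were not analysed here.

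Alternatives were a pseudocount of 1.69 or 27, no filter, a filter at 61.5, quantile normalization, a common 75th percentile, a fit of only the sets compared, a block for the replicate letter, and the omission of single arrays. The comparison of ATGE_100 with ATGE_96 and the omission of 3 arrays together were added after values had been seen. Of 24 correlations between same-letter samples 1 exceeded 0.1, so the letters were not used to pair the samples. Sets ATGE_23 and ATGE_24 were not compared in this check. Array A had the lowest BioB mean in both ATGE_100 and ATGE_101, and shared handling by letter was not tested further.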

Additional observations from a re-analysis of the deposited data

Results flagged for a closer look

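The sucrose difference of HIS1-3 had opposite directions in the medium pairs. Every array of set ATGE_101 lay above every array of set ATGE_100, at 300.1 to 326 against 165 to 199, while every array of set ATGE_97 lay below every array of set ATGE_96, at 24.6 to 27.1 against 28.5 to 29.8. The difference between these effects was 0.9 on the log2 scale, and it was not tested. Non-overlap was common, at 39.1% of all probe sets tested in the second pair and 52.3% in the first, and in the first pair the difference of -0.13 was smaller than its standard error of 0.19.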

How the results depend on the processing

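No difference of HIS1-3 or WSD1 in the 6 comparisons turned its direction under any alternative run. In 14 cases, all under another pseudocount, a difference moved by more than the spread between replicates. At 1.69, the differences of HIS1-3 were 1.9 (ATGE_96 minus ATGE_7) and 2.48 (whole plants minus ATGE_7), and those of WSD1 were 0.53 (ATGE_97 minus ATGE_96), -2.11 (ATGE_96 minus ATGE_7), 2.13 (whole plants minus ATGE_7) and 3.5 (ATGE_100 minus ATGE_96). At 27, those of HIS1-3 were 0.73 (ATGE_96 minus ATGE_7), 1.11 (whole plants minus ATGE_7), -0.7 (ATGE_22 minus ATGE_23 and ATGE_24) and 1.87 (ATGE_100 minus ATGE_96), and those of WSD1 were 0.93 (ATGE_101 minus ATGE_100), -0.47 (ATGE_96 minus ATGE_7), 1.17 (whole plants minus ATGE_7) and 1.13 (ATGE_100 minus ATGE_96). WSD1 in sets ATGE_97 and ATGE_96 and HIS1-3 in set ATGE_7 lie near the floor, and WSD1 in set ATGE_7 also stayed below 22.8, which limits what their differences can show. Fitting only the sets compared lowered the calls in ATGE_22 minus ATGE_23 and ATGE_24 to 1319, against 2720. Filters, the fit of only the sets compared and the replicate letter as a block cannot alter a difference of set means in this balanced design, so the blocked values are the same by construction, for example 0.77 for HIS1-3 and 1.22 for WSD1 in ATGE_101 minus ATGE_100. The block ended the calls of COR15A (0.057) and COR15B (0.053) in ATGE_97 minus ATGE_96 and of AT1G06760 in whole plants minus ATGE_7 (0.054). Of the alternatives for listed genes that had been called, 935 kept the call and 102 lost it.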
